A study of Mus musculus with 19 samples.

Results

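The regions described here are 631 upstream open reading frames (upstream ORFs) of mouse melanoma cells that the authors listed with a start codon other than ATG: 364 with CTG, 175 with GTG and 92 with ACG. They were taken from the authors' deposited tables of non-canonical ORFs as the rows typed as upstream ORF with one of these 3 codons, out of 1229 listed upstream ORFs and 2997 listed ORFs of all types. The other 598 listed upstream ORFs start with ATG. Each such codon differs from ATG at a single base and is called near-cognate. The choice used the authors' annotation of the start codon and not its level. The authors' listing itself was tied to the footprints. Every member has an adjusted p of at most 0.0498 in their comparison of reading frames within the ORF.

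An upstream ORF lies in the 5′ leader of a messenger RNA, before the coding sequence of the protein that the gene is named for. A ribosome scanning from the cap meets it first, and a near-cognate codon is recognised less well than ATG, with help or restraint from the initiation factors eIF1 and eIF5 and from the bases around it. Purines 3 bases before the start codon and a G right after it are the best known features of a strong context. Most upstream ORFs are short, many lower the yield of the main protein, and some give peptides that are presented on MHC class I.

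B16-F10, a cultured melanoma line of C57BL/6 mice, was the source of every library. One group carried a scrambled control (SCR) and the other was labelled as knockout of Mettl5 (KO), the enzyme that methylates an adenosine of 18S ribosomal RNA together with TRMT112; no further allele or agent was given to either. Input RNA and ribosome footprints were each sequenced from 2 SCR and 2 KO libraries, and footprints came from cells held with cycloheximide, which stops ribosomes during elongation and does not mark start codons. The count tables name the KO columns POOL, and the sample labels say neither what was pooled nor whether the 2 libraries of a group are separate cultures, so p-values measure only the spread between these libraries. Whether the listed ORFs start at the listed codon was not measured by these footprints.

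Library totals were 38968000 to 48692578 counts in input RNA, 28059683 and 31301806 in SCR footprints, and 14555963 and 21366608 in KO footprints, so KO footprints were the shallowest. CPM are counts scaled to the library total after correction of that total by edgeR's TMM factor. Mettl5 footprints were at 11.0 and 11.6 CPM in the KO libraries and 15.1 and 13.8 in SCR. Their log2 difference of -0.35 did not pass (adjusted p = 0.112 in edgeR's quasi-likelihood test). Mettl5 RNA was at 6.46 and 6.21 CPM in the KO libraries and 9.23 and 9.41 in SCR. The log2 difference (KO minus SCR, as throughout) was -0.56 (SE 0.129, adjusted p = 0.0284 in edgeR's quasi-likelihood test). That call was lost without KO library 1 (adjusted p = 0.0545), SCR library 1 (0.122) or SCR library 2 (0.116), and when every gene with a count was tested (0.0604). All 8 melanocyte markers were detected (Pmel at 3299 to 3447 CPM in input RNA), and among markers of other cell types Ptprc, Cd3e, Epcam, Krt5 and Hbb-bs were at 0 in all 4 input RNA libraries, while Lyz2 (0.426 to 0.864 CPM) and Pecam1 (0.200 to 0.455 CPM) were detected at low levels in all 4.

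The sequences around some of the starts were taken from genomic DNA, and not every base of them lies in the listed transcript. The deposited tables give the peptide and not the DNA, so the first 8 residues of each ORF were sought in the translated RefSeq window around its host gene's transcription start (250 bases before to 50 after, GRCm38.p6); 512 of the 631 had such a window, and 79 start sites were found in exactly 1 place. Those below are, among the matched starts of each codon, the 4 with the most ribosomal P-sites, plus Eif3c and Mt1, which recur in the results; they were picked after their values were seen. All but Tfdp1 matched the listed peptide to the end of the ORF or window; Tfdp1 matched 10 of the 24 residues in the window. The listed transcript has only 3 bases before the start codon in Slc16a1, 1 in 5031439G07Rik and 0 in Rbm12. Bases printed further upstream there are genomic and precede that transcript. The start codon is in capitals, with 12 bases before it, 30 bases in all, 5′ to 3′.
Ubb (CTG, chr11:62551548-62551577, plus strand): tgtttcgacgcgCTGggcggtttgtgcttt
Clcn4 (CTG, chr7:7298801-7298830, minus strand): gccccgccccgcCTGcctgcctgtcacccg
Trim37 (CTG, chr11:87127081-87127110, plus strand): cctctagctgccCTGgttaccgttggtgtt
Scrn1 (CTG, chr6:54566442-54566471, minus strand): acacaacgagtcCTGgggcccagagcaccg
Slc16a1 (GTG, chr3:104638659-104638688, plus strand): ccgccagacaaaGTGgcgagctgcgacgtg
5031439G07Rik (GTG, chr15:84987953-84987982, minus strand): ctgaggatcgcaGTGctccgctgtgctccg
Ahcyl1 (GTG, chr3:107696520-107696549, minus strand): cgtgtggcggagGTGgctgcgcgggcaggt
Fcgrt (GTG, chr7:45103797-45103826, minus strand): gcttaggagctaGTGggtggagttggatgc
Eif3c (GTG, chr7:126566372-126566401, minus strand): tcttccggcgtcGTGcctgtctcacctgct
Mt1 (GTG, chr8:94179096-94179125, plus strand): tccgcccgaaaaGTGcgctcggctctgcca
Ptp4a2 (ACG, chr4:129820395-129820424, plus strand): agcagcagcaagACGgactcgtggacacgc
Tfdp1 (ACG, chr8:13338765-13338794, plus strand): cgcgccgcgcgcACGtcacgccggcccgac
Arrdc3 (ACG, chr13:80883423-80883452, plus strand): gagaccactgagACGagcaggagcgtggag
Rbm12 (ACG, chr2:156111939-156111968, minus strand): cctactccgggaACGcggagcgccggagcg

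Among the 79 matched starts, 59 (74.7%) had an A or a G at the third base before the start codon. By codon these were 31 of 43 CTG starts, 20 of 26 GTG starts and 8 of 10 ACG starts. Of the 80 matched ATG starts of upstream ORFs, 46 (57.5%) had one. A G right after the codon followed 39 near-cognate starts (49.4%) and 45 ATG starts (56.3%), and both features stood at 30 near-cognate starts (38.0%) and 29 ATG starts (36.3%). For comparison, of all CTG triplets in the 50 bases after the RefSeq starts, whatever their use, 48.6% had the purine and 15.4% had both features; for GTG the shares were 52.4 and 18.9%, for ACG 56.1 and 18.8%, and for ATG 60.4 and 22.6%. Of these 50-base stretches, 73.9% hold a CTG, 56.0% a GTG and 24.04% an ACG (given strand only), so the triplets themselves are common. Matched starts were sought in the whole window, from 250 bases before to 50 after the RefSeq start, and the background triplets only in the last 50 bases. The regions compared thus differ. All bases are genomic, and in Rbm12, 5031439G07Rik and Atg3 the third base before the codon precedes the listed transcript. Each of these was still counted with its G. All these shares are descriptions of the starts that fell near a RefSeq start, with no test, and say nothing of which triplets are used.

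The 631 ORFs lie in the leaders of 576 host genes: 348 with a CTG, 160 with a GTG and 89 with an ACG ORF. There were 47 hosts with more than 1 such ORF, 21 with 2 different codons among the 3, and 34 that also had a listed ATG upstream ORF (5.90% of these hosts and 6.17% of the 551 ATG hosts). The transcripts were protein coding for 627 ORFs and marked for nonsense-mediated decay for 4. Members are not all independent: 30 share their start site with another member, and 12 have the same P-sites in each frame and the same length as another, among them Ubb (polyubiquitin) with Gm8797 and Tpm3 (tropomyosin) with its copy Tpm3-rs7, so reads of near-identical or overlapping genes cannot be told apart there. In the authors' database of 12061 non-canonical ORFs, 478 members (75.8%) appear under the same identifier.

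Near-cognate ORFs were short, with the lowest median length in CTG ORFs. Median length without the stop codon was 84 bases for CTG (95% interval of the median 78 to 90, over the listed ORFs), 99 for GTG (87 to 111) and 99 for ACG (78 to 114); ATG upstream ORFs had a median of 72 (66 to 78). The shortest in the tables was 24 bases for CTG and GTG and 27 for ACG. Under 20 codons lay 119 CTG ORFs (32.7%), 50 GTG ORFs (28.6%) and 21 ACG ORFs (22.8%), against 247 ATG ORFs (41.3%). Over 100 codons there were 5 ORFs of each near-cognate codon. The intervals of GTG and ACG overlap throughout, and that of CTG overlaps both.

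The longest ORFs were found in leaders of varied genes. With ACG the longest was that of Man1c1, a Golgi mannosidase, with 546 bases and 117 P-sites, of which 45.3% were in its own frame. Dap3, a mitochondrial ribosomal protein, followed with 363 bases and 221 P-sites. The longest GTG ORFs were those of Josd1, a deubiquitinase (495 bases, 168 P-sites), and Tlnrd1 (402 bases, 127 P-sites). Among CTG ORFs these were Hmgxb3 (411 bases, 273 P-sites) and Cemip2, a cell-surface protein of hyaluronan turnover (387 bases, 60 P-sites). Each of these 6 ORFs covered a small share of its codons: a P-site in the ORF's own frame was found in 12.7 to 19.0% of codons, against medians of 35.1% for CTG, 33.8% for GTG and 31.8% for ACG.

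Position in the leader was alike for the 3 codons. The start codon lay a median of 87 bases from the transcript's start for CTG, 85 for GTG and 78.5 for ACG, and 117.5 for ATG upstream ORFs. From the stop codon to the coding sequence the medians were 88.5, 95 and 83.5 bases, and 111.5 for ATG. The ORF stood in the same frame as the coding sequence in 125 CTG (34.3%), 66 GTG (37.7%) and 25 ACG ORFs (27.2%). An in-frame ATG within the ORF, from which the same stop codon could be reached, was present in 52 CTG (14.3%), 19 GTG (10.9%) and 10 ACG ORFs (10.9%). For these 81 ORFs the P-sites downstream of that ATG do not tell the 2 starts apart.

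P-sites, the positions of the ribosome's peptidyl site assigned to the footprints, are given by the authors per reading frame, frame 0 being the ORF's own, and not per library. One total of 85772612 P-sites underlies the RPKM of every row, so no value per genotype exists for an ORF in these tables. The median number of P-sites in the 3 frames was 59 for CTG (interval 52 to 70), 80 for GTG (67 to 98) and 98.5 for ACG (62 to 110), and 51 for ATG (47 to 58). Per codon of ORF the medians were closer, at 2.45, 2.52 and 2.41 P-sites, and 2.21 for ATG. In frame 0 RPKM they were 5.98 for CTG, 6.40 for GTG and 5.89 for ACG, beside 6.41 for ATG. The intervals of these per-length medians overlap among the 3 codons, while CTG ORFs had the lowest medians of both P-sites and length.

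**Figure D1:**
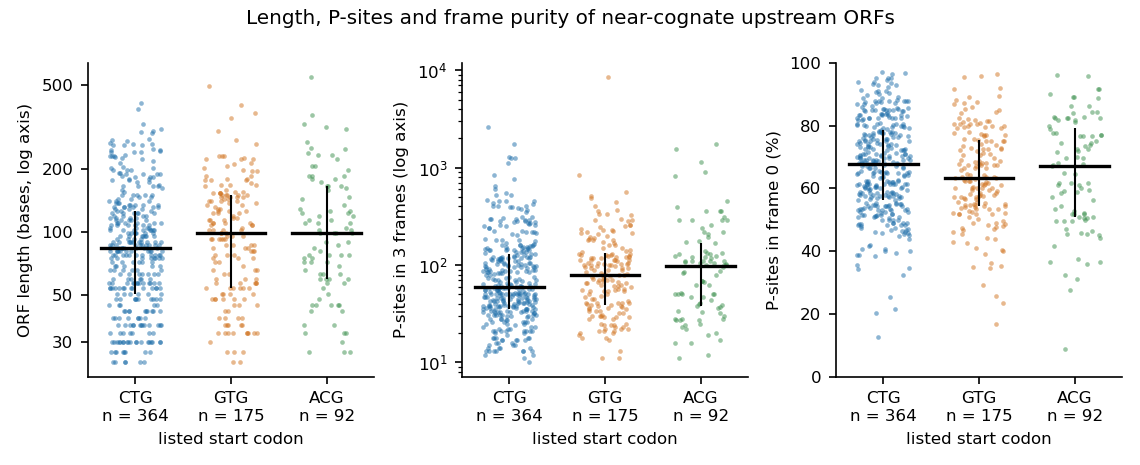
Length in bases (log axis), P-sites in 3 frames (log axis) and share of P-sites in frame 0 (percent) of each near-cognate upstream ORF, by listed start codon. Points are ORFs, horizontal bars medians and vertical lines quartiles; CTG ORFs have the lowest medians of length (84 bases) and P-sites (59), and GTG ORFs the lowest median frame purity (63.2%).

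A few ORFs held a large share of all near-cognate P-sites. The GTG ORF of Hnrnpab, a protein that binds messenger RNA, had 8496 P-sites in 33 bases (chromosome 11, 51497594 to 51497559 on the minus strand, GRCm39 coordinates as the authors give them), which is 29.8% of the P-sites of all 175 GTG ORFs. Of these, 7810 were in frame 0, 220 in frame 1 and 466 in frame 2, a frame purity of 91.9% (95% Wilson interval 91.3 to 92.5, counting error only). At 2759 frame 0 RPKM it lay above every other member. The ACG ORF of Nop10, a component of box H/ACA ribonucleoproteins, came next with 555 RPKM: 1570, 29 and 165 P-sites in frames 0, 1 and 2 over 33 bases.

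Among CTG ORFs the highest RPKM was that of Ubb, at 371, with 955, 102 and 205 P-sites in the 3 frames over 30 bases; Gm8797 carries the same values. Lta4h, a leukotriene A4 hydrolase, had 139 RPKM over 27 bases, with a frame 0 P-site at every codon (100%). Gusb, the lysosomal beta-glucuronidase, had 139 RPKM with 678, 15 and 69 P-sites, a purity of 89.0%. Ccng1, cyclin G1, had 133 RPKM in its highest CTG ORF and 2 further listed CTG ORFs at 8.71 and 8.23. These leading CTG ORFs are short, from 27 to 57 bases.

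The GTG ORFs next in RPKM after Hnrnpab belong to Gabarapl1 (124, autophagy), Cox14 (79.6, cytochrome c oxidase assembly), Eif3c (78.7, a subunit of the initiation factor eIF3) and Prkcsh (72.8, a glucosidase II subunit). Eif3c had 243 of 252 P-sites in frame 0, a purity of 96.4% (93.4 to 98.1), the highest of any GTG ORF. Cox14 was spread more widely, with 512, 275 and 64 P-sites in the 3 frames. For ACG, Nop10 was followed by H2az1, a histone variant, at 299.7 RPKM, Ptp4a2, a phosphatase, at 130, Rhoa, a small GTPase, at 118, and Cited2, a transcriptional co-regulator, at 82.7. Ptp4a2, whose start is printed above, had 1376, 103 and 64 P-sites in frames 0, 1 and 2, but in only 21.9% of its 41 codons, so most of them lay at few places.

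Over all listed ORFs the median frame purity was lower for each near-cognate codon than for ATG. Frame purity, the share of an ORF's P-sites that fall in frame 0, had a median of 67.9% for CTG (interval 65.0 to 69.6), 63.2% for GTG (60.3 to 67.4) and 67.3% for ACG (59.4 to 72.7), against 77.5% for ATG (76.9 to 78.6). No near-cognate interval reached that of ATG. The listed ORFs are not replicates and no test was made. In the authors' comparison of frame 0 with the other frames, the largest adjusted p was 0.0498 for near-cognate and 0.0491 for ATG ORFs. Purity therefore describes ORFs whose listing was tied to the same frame counts, and is no independent evidence of translation in frame 0. Purity of at least 90% was found in 20 CTG, 5 GTG and 5 ACG ORFs and in 75 ATG ORFs. Purity under 50% was found in 43 CTG (11.8%), 28 GTG (16%) and 19 ACG ORFs (20.7%), and in 25 ATG ORFs (4.18%).

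Length moved with purity in each kind of ORF. Under 60 bases the median purity was 70.5% for CTG, 73.9% for GTG, 77.1% for ACG and 80.7% for ATG. At 120 bases or more it was 62.4% for CTG, 56.9% for GTG, 52.6% for ACG and 71.4% for ATG. The medians were thus below that of ATG in short and in long ORFs, and GTG and ACG varied more with length than CTG did. With at least 200 P-sites the median was 68.1% in 58 CTG ORFs, 57.7% in 28 GTG ORFs, 77.0% in 20 ACG ORFs and 79.6% in 53 ATG ORFs, so the order of the 3 near-cognate codons was not the same at every depth. Under 25 P-sites the 10 ACG ORFs had 81.5% and ATG ORFs 81.0%, so ACG was not lower there. The part of the authors' frame comparison in purity at low depth was not tested.

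Summing P-sites over ORFs in place of taking the median changed the order of codons. Summed purity was 64.2% for CTG, 69.3% for GTG, 71.0% for ACG and 71.7% for ATG. Without the ORF of most P-sites of each codon (Ncl, Hnrnpab, Nop10 and, for ATG, Eif5) it was 65.9, 59.6, 68.8 and 74.8%. Leaving out Hnrnpab thus lowered the summed value of GTG from the middle to the lowest of the 3, its place in the medians over all ORFs. The full order of CTG, GTG and ACG in those medians was found in neither sum.

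**Figure D2:**
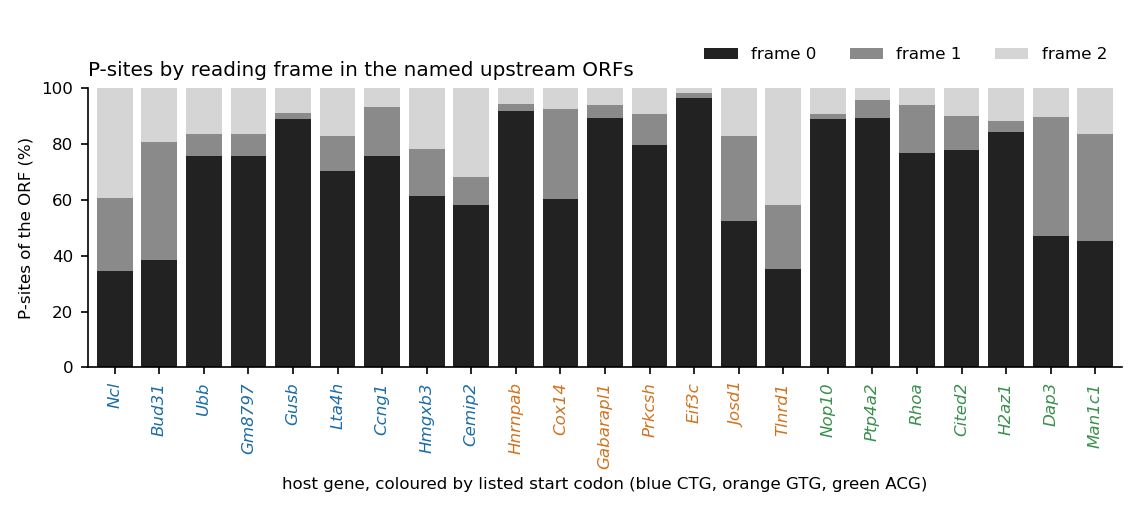
Share of P-sites (percent) in frames 0, 1 and 2 of the named near-cognate upstream ORFs, 1 bar per ORF, ordered within each start codon by number of P-sites. Eif3c reaches 96.4% in frame 0, whereas Ncl (34.4%) and Bud31 (38.4%) have most of their P-sites outside it.

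In 39 members (18 CTG, 14 GTG and 7 ACG, or 4.95, 8.00 and 7.61%) frame 0 did not hold the most P-sites, against 16 of 598 ATG ORFs (2.68%). Frame 1 led in 20 of the 39, frame 2 in 16, and 3 were tied. The authors' deposited table gives for every ORF a p for frame 0 against each other frame, combined and adjusted, and the largest adjusted p among the members is 0.0498, so these 39 were listed as well. The pair of CTG ORFs with the most P-sites are among them. Ncl, nucleolin, had 898, 682 and 1030 P-sites in frames 0, 1 and 2, and Bud31, a splicing factor, had 670, 740 and 334. Both have a frame 0 P-site in over 60% of codons (68.4 and 61.9%), so these ORFs are covered along their length.

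In other such members 1 of the other frames led by more. The CTG ORF of Itm2b, a membrane protein of the BRICHOS family, had 39, 253 and 20, and that of Eif3a, the largest eIF3 subunit, had 88, 261 and 57. The GTG ORF of Ctcf, the insulator-binding protein, had 194, 342 and 22, that of Fcgrt, the neonatal Fc receptor, 68, 201 and 19, and that of Foxp4, a forkhead factor, 40, 18 and 178. The ACG ORF of Odc1, ornithine decarboxylase, was more even, with 70, 86 and 36. The lowest purity of all was 8.70%, in the ACG ORF of Septin10, with 6 P-sites in frame 0 and 63 in frame 2. Another upstream ORF of the authors' database with a different stop codon overlapped 11 of these 39 (28.2%) and 114 of the other 592 (19.3%); its part in the frame counts was not tested.

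Host genes were compared with their ORFs on a common per-length scale: frame 0 P-sites RPKM for the ORF, and for the host its footprints per kilobase of coding sequence, scaled like an RPKM to the total of the 4 footprint libraries. Host footprints had a median of 22.6 on this scale for CTG, 24.8 for GTG and 26.2 for ACG hosts, and 16.4 for ATG hosts. The ratio of ORF to host had a median of 0.276 for CTG, 0.248 for GTG and 0.229 for ACG, against 0.427 for ATG. Quartiles were 0.0973 and 0.656 for CTG, 0.0789 and 0.534 for GTG, and 0.0722 and 0.524 for ACG. The host's count includes any footprints on its leader, and only frame 0 counts for the ORF, so the ratio compares 2 densities and is not an efficiency. The ORF's RPKM rests on the total of P-sites and the host's value on the total of footprints, which differ. Set against the host gene's footprint count, which is a separate count and need not hold them, ORF P-sites had medians of 2.39, 2.21 and 2.003%.

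Above a ratio of 1 lay 95 of 631 members: 57 of 364 CTG, 27 of 175 GTG and 11 of 92 ACG ORFs. Among ATG upstream ORFs 165 of 596 lay above 1, so such ratios are not particular to near-cognate ORFs. Hnrnpab stood at 4.97, with 2759 against 555, and its ORF's P-sites number 18.7% of the gene's separate footprint count. Map3k11, a mixed-lineage kinase, reached 8.44 in its CTG ORF (71.7 against 8.49), and Nop10 2.63 in its ACG ORF (555 against 211). The highest ratio, 13.1, was that of Gm29394, whose ORF has the same P-sites as that of Zhx1, so its source gene is uncertain. The lowest ratio was 0.00123, in the CTG ORF of Myadm, a membrane protein with host footprints at 750 on this scale. Eif5a, the hypusine-bearing translation factor, had ratios of 0.00485 and 0.00272 in its 2 GTG ORFs.

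**Figure D3:**
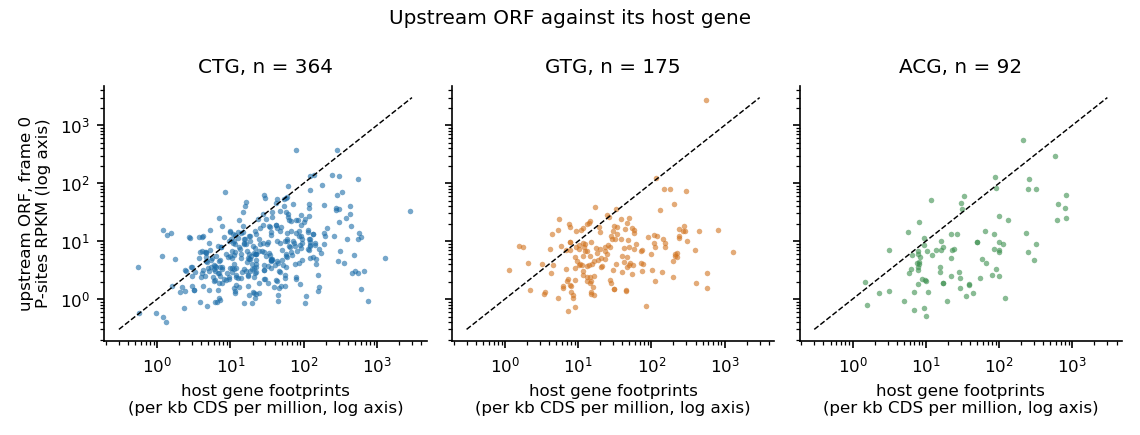
Frame 0 P-sites RPKM of each near-cognate upstream ORF against the footprints of its host gene, both on log axes, 1 panel per start codon. Host values are the gene's whole footprint count, any on the leader included, per kilobase of coding sequence. The ORF and host scales use different totals. The dashed line marks equal values. Most ORFs lie under the line (median ratios 0.276, 0.248 and 0.229), and the GTG ORF of Hnrnpab stands highest, at 2759.

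The authors split their ORFs into 2 lists by whether TPM was larger in KO or in SCR cells; the TPM values were not used here, and the sources used here do not state whether they came from RNA or footprints, or by how much they had to differ. The KO list holds 171 near-cognate ORFs and the SCR list 460. The KO list's share was 24.5% for CTG, 30.9% for GTG, 30.4% for ACG and 36.3% for ATG upstream ORFs. ORFs of the KO list had fewer P-sites than those of the SCR list for all 3 codons, with medians of 35 and 73 for CTG, 45 and 98 for GTG and 65.5 and 103.5 for ACG. Lengths were also lower, at 75 and 87 bases for CTG, 87 and 102 for GTG and 76.5 and 111 for ACG. ATG upstream ORFs showed the same, with medians of 41 and 58 P-sites and of 57 and 75 bases in the KO and SCR lists. Frame purity was 65.4 and 67.9% for CTG, 66.7 and 62.3% for GTG, 79.4 and 61.8% for ACG, and 77.1 and 77.8% for ATG, so the KO-list ACG median was not below that of ATG. KO footprints were also fewer in number, and the part of that in the 2 lists was not tested.

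In input RNA, 76 host genes rose and 70 fell in KO cells among 575 tested (13.2 and 12.2%), beside 9.56% and 7.21% of all 20025 genes tested. Hosts are well expressed, with a median of 64.0 CPM in input RNA and 33.5 in footprints, whereas the genes tested in all 3 comparisons had medians of 28.1 and 16.3. Among those 13779 genes, 13.1% rose and 9.30% fell, so the share of hosts that rose is near that background, and the share that fell is 12.2% of the 574 hosts among them; the part of expression level in this was not tested. ATG hosts gave 83 rises and 59 falls of 549. By codon, 37 rose and 47 fell of 347 CTG hosts, 24 and 17 of 160 GTG hosts, and 20 and 9 of 89 ACG hosts (22.5 and 10.1%); whether the codons differ was not tested. The median log2 difference was -0.00075 for these hosts and -0.01 for all genes. Without SCR library 1 there were 17 rises and 20 falls, of which 15 and 19 were among the 76 and 70. Without SCR library 2 there were 30 and 25, of which 25 and 23 were.

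The 5 rises in RNA with the smallest p, among hosts whose groups do not overlap, were Dcaf8l, Mt1, Tfdp1, Odc1 and Mpp6. Dcaf8l carries 5 listed ORFs along its leader, 3 with ACG and 2 with GTG. Its RNA was at 43.7 and 43.6 CPM in KO and 23.6 and 23.5 in SCR, a log2 difference of 0.89 (SE 0.0629, adjusted p = 0.00084, edgeR). The groups do not overlap, but counts of a Dcaf8-like gene may include reads of its relatives. Mt1, the metal-binding metallothionein, with 1 CTG ORF (845 P-sites) and the GTG ORF printed above (41 P-sites), was at 326 and 303 CPM in KO and 192 and 207 in SCR (0.66, SE 0.0597, adjusted p = 0.00207, edgeR).

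Tfdp1, the partner of E2F factors, whose ACG start is printed above, was at 239 and 242 CPM in KO and 173 and 178 in SCR (0.46, SE 0.0465, adjusted p = 0.00301, edgeR). Odc1, which makes putrescine and is a textbook case of control by its leader, was at 392 and 359 CPM in KO and 261 and 267 in SCR (0.51, SE 0.0559, adjusted p = 0.0035). Mpp6, a membrane scaffold protein, was at 165 and 160 in KO and 119 and 122 in SCR (0.43, SE 0.0495, adjusted p = 0.00407). Each of these 5 genes stayed past the threshold in every alternative run.

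The 5 falls in RNA with the smallest p, among hosts whose groups do not overlap, were Adgrg1, Myadm, Timp3 and Inpp5e, whose listed near-cognate ORFs all start with CTG, and Anxa6. Adgrg1, an adhesion receptor known in melanoma, was at 243 and 237 CPM in KO and 355 and 358 in SCR (-0.57, SE 0.0449, adjusted p = 0.00138, edgeR). Myadm, a membrane protein, was at 121 and 124 in KO and 201 and 182 in SCR (-0.64, SE 0.0608, adjusted p = 0.00238). Timp3, the matrix-bound inhibitor of metalloproteinases, was at 34.0 and 36.8 in KO and 60.5 and 56.6 in SCR (-0.73, SE 0.0692, adjusted p = 0.00239). The size of the difference was largest in Timp3 of these 3. Anxa6, a calcium-dependent membrane-binding protein with an ACG ORF, was at 48.8 in both KO libraries and 75.4 and 69.7 in SCR (-0.57, SE 0.0617, adjusted p = 0.0035), and Inpp5e, a phosphatase of cilia with 2 CTG ORFs, at 29.2 and 29.1 in KO and 42.7 and 40.2 in SCR (-0.51, SE 0.0655, adjusted p = 0.00535). These 5 also stayed past the threshold in every alternative.

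In footprints few hosts passed: 4 rose and 12 fell of 575 tested (0.696 and 2.09%), beside 0.51% and 1.78% of all 16878 genes, which is near the background. Unadjusted p was below 0.05 for 83 higher and 110 lower hosts. Dusp6, a phosphatase that acts on ERK, has a CTG and an ACG ORF, and its footprints were at 44.4 and 49.3 CPM in KO and 29.03 and 27.8 in SCR (0.72, SE 0.0767, adjusted p = 0.0333, edgeR). Its RNA rose as well, by 0.42 (adjusted p = 0.00698). Dcaf8l footprints were at 25.1 and 25.3 in KO and 13.1 and 12.4 in SCR (0.98, SE 0.0742, adjusted p = 0.0195). Serpinb8, a serine protease inhibitor with a CTG ORF, had 7.36 and 7.62 in KO and 3.79 and 3.80 in SCR (0.98, SE 0.109, adjusted p = 0.035), and Tpm3-rs7 211 and 222 in KO and 161 and 166 in SCR (0.41, SE 0.0584, adjusted p = 0.0496), with the doubt over its copy named above.

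Of the 12 that fell in footprints, Fcgrt was at 34.0 and 33.9 CPM in KO and 53.5 and 56.9 in SCR (-0.70, SE 0.0617, adjusted p = 0.0283, edgeR), and its RNA fell by 1.00 on the log2 scale (adjusted p = 0.00774). Rhbdf2, a rhomboid-like protein with an ACG ORF, was at 56.7 and 54.1 in KO and 84.9 and 84.8 in SCR (-0.61, SE 0.0579, adjusted p = 0.0311). Cdkn1a, the cell-cycle inhibitor p21, with a GTG ORF of 255 P-sites, was at 85.5 and 90.7 in KO and 132 and 131 in SCR (-0.58, SE 0.0593, adjusted p = 0.0319). Its RNA did not separate the groups, at 175 and 160 CPM in KO and 168 and 161 in SCR (0.03, adjusted p = 0.79). Mfsd10, a transporter-like membrane protein with a GTG ORF, was at 82.0 and 81.0 in KO and 114 and 118 in SCR (-0.51, SE 0.0546, adjusted p = 0.0334), and Ptgir, the prostacyclin receptor with a CTG ORF, at 7.17 and 8.07 in KO and 17.8 and 15.2 in SCR (-1.11, SE 0.123, adjusted p = 0.035). None of these footprint calls held with 1 library left out: without KO library 1 or KO library 2 no host was called, without SCR library 1 there was 1 fall and without SCR library 2 there was 1 rise, each in another host (edgeR; unadjusted p below 0.05 for 81 higher and 93 lower without KO library 1, and 42 and 91 without KO library 2). DESeq2 called 24 rises and 59 falls.

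**Figure D4:**
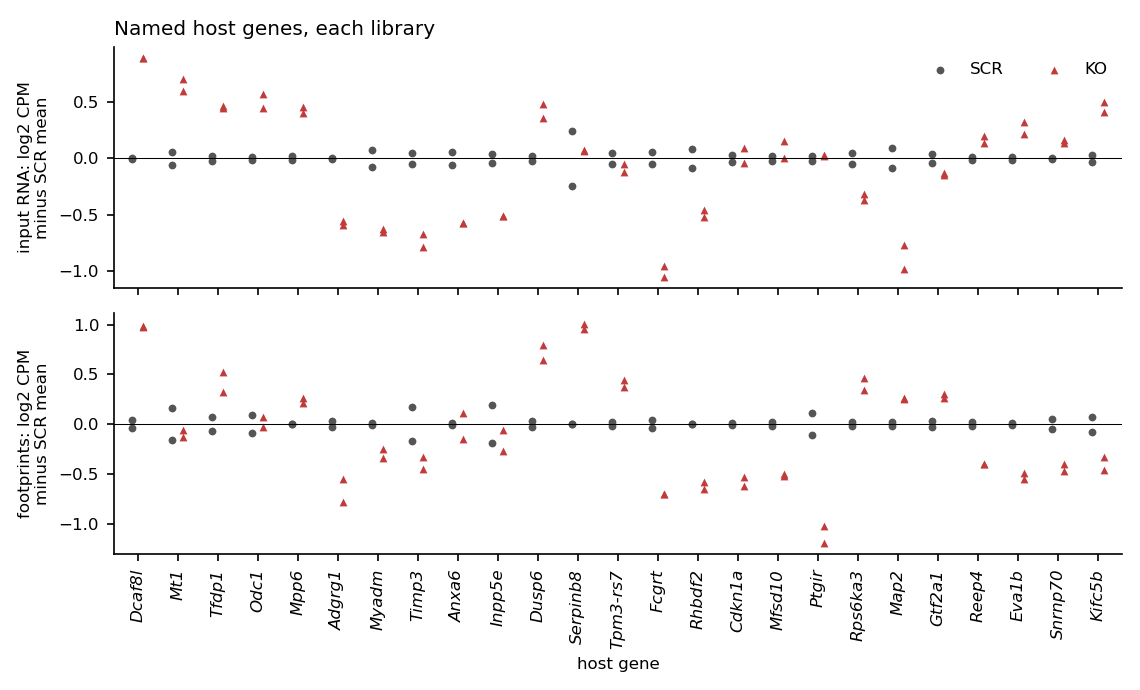
Log2 CPM of each library minus the mean of the 2 SCR libraries, for input RNA (top) and footprints (bottom), of the named host genes; circles are SCR and triangles KO libraries. Dcaf8l lies above SCR in both assays (0.89 and 0.98), while the KO libraries of Cdkn1a and Ptgir lie below SCR in footprints (-0.58 and -1.11) and overlap with them in input RNA (0.03 in both).

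Footprints per RNA, tested in 1 model of all 8 libraries as a genotype effect that differs between assays, and so sharing libraries with both comparisons above, fell in 43 hosts and rose in 7 of 576 tested (7.47 and 1.22%). Of all 23211 genes 3.4% fell and 0.788% rose, and of the 13779 genes tested in all 3 comparisons 5.56% fell and 1.15% rose. ATG hosts were close to this, with 42 falls and 9 rises of 549 (7.65 and 1.64%). By codon, 25 CTG, 16 GTG and 4 ACG hosts fell (7.18, 10.0 and 4.49%), and 3, 3 and 1 rose. The median was -0.07 for hosts, -0.05 for all genes and -0.09 for those 13779 genes. No host was called without KO input library 1, SCR input library 1 or SCR input library 2 (edgeR; unadjusted p below 0.05 for 116, 116 and 120 lower hosts and 42, 48 and 37 higher), and DESeq2 called 80 falls and 33 rises.

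The 5 falls with the smallest p, among hosts with every KO ratio of footprints to RNA below every SCR ratio, were Reep4, Eva1b, Snrnp70, Kifc5b and Cdkn1a. Reep4, a protein of the endoplasmic reticulum with a GTG ORF, was at 92.3 and 92.2 CPM of footprints in KO and 120 and 123 in SCR, with RNA at 42.8 and 41.1 in KO and 37.6 and 37.0 in SCR, an interaction of -0.61 (SE 0.0697, adjusted p = 0.0205, edgeR). Snrnp70, the U1 70K splicing protein with a CTG ORF of 434 P-sites, was at 299 and 313 in KO footprints and 428 and 399 in SCR, and at 104 and 102 CPM of RNA against 92.6 and 92.8 (-0.63, SE 0.0769, adjusted p = 0.0205). In both genes the KO libraries lay below SCR in footprints and above SCR in RNA. The RNA differences did not pass (adjusted p = 0.105 and 0.0802, edgeR), and the footprint difference passed for Reep4 (0.045) and not for Snrnp70 (0.0548).

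Eva1b, with a CTG ORF, had an interaction of -0.83 (SE 0.095), from footprints of 30.4 and 31.7 CPM in KO and 44.2 and 44.8 in SCR. Kifc5b, a kinesin with close relatives in the genome that could share its reads, had -0.89 (SE 0.111), with RNA at 35.3 and 33.3 in KO and 25.6 and 24.4 in SCR. Cdkn1a had -0.64 (SE 0.0863), and each of these 3 had an adjusted p of 0.0205 (edgeR). Odc1, whose RNA rose, had footprints of 32.8 and 35.0 CPM in KO and 35.4 and 31.4 in SCR, groups that overlap, and an interaction of -0.53 (SE 0.103, adjusted p = 0.0392).

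Among the rises per RNA with the smallest p, the RNA itself had fallen in Map2 and Rps6ka3. Map2, a microtubule-associated protein with a GTG ORF, had RNA at 12.4 and 14.3 CPM in KO and 25.9 and 22.9 in SCR and footprints at 15.5 and 15.3 against 13.1 and 12.7, an interaction of 1.09 (SE 0.147, adjusted p = 0.0205, edgeR). Rps6ka3, the kinase RSK2 with a GTG ORF, had 118 and 123 of RNA in KO and 148 and 157 in SCR and footprints of 124 and 135 against 96.8 and 99.0 (0.71, SE 0.0934, adjusted p = 0.0205). Gtf2a1, a subunit of TFIIA with a CTG ORF, had 0.38 (SE 0.0714, adjusted p = 0.0367), and Tpm3-rs7 0.45 (SE 0.0852, adjusted p = 0.0367).

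By the authors' lists, the hosts of KO-list ORFs had 25 rises and 16 falls in RNA of 165, 4 and 1 in footprints, and 5 and 5 per RNA, read against the shares of all genes given above for each comparison. The hosts of SCR-list ORFs had 53 and 56 of 422 in RNA, 1 and 11 of 422 in footprints, and 2 and 39 of 423 per RNA. The 4 rises in footprints in KO-list hosts are those named above, and Dcaf8l has ORFs in both lists. Of the 27 hosts of KO-list ACG ORFs, 8 rose in RNA and none fell, beside 9.56% and 7.21% of all genes and 13.1 and 9.30% of the 13779 (edgeR; at an unadjusted p below 0.05, 14 and 0, and by DESeq2 9 and 0), with a median of 0.18. Since the lists were made from a comparison of the same cells, this split is no independent evidence of a direction in the hosts.

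Genes linked to translation initiation were taken as a list of 36, with initiation factors, 40S proteins, re-initiation factors, Abce1 and Eif5a among them. Not all of them act on the choice of start codon. Of all genes tested 9.56% rose in input RNA, and of the 13779 genes tested in all 3 comparisons 13.1% rose. The part of expression level in the list's share was not tested. In input RNA 14 of the 36 rose and none fell (20 and 0 at an unadjusted p below 0.05, and 16 and 0 by DESeq2), with a median of 0.14. By smallest p these were Eif3b (0.48, SE 0.0512, adjusted p = 0.00328, edgeR) and Eif4h (0.48, SE 0.0632, adjusted p = 0.00577), with Eif4a1 (0.33, SE 0.0536) and Rps2 (0.50, SE 0.0808) both at an adjusted p of 0.00985. Eif1, the gatekeeper of start codon choice, was at 347 and 343 CPM in KO and 294 and 298 in SCR (0.22, SE 0.0441, adjusted p = 0.0179), and Eif5, which works against it, at 613 and 591 in KO and 502 and 527 in SCR (0.23, SE 0.0483, adjusted p = 0.0222). Both calls were lost without SCR library 1 (adjusted p = 0.168 and 0.216), without SCR library 2 (0.125 and 0.093), and with every gene with a count tested (0.051 and 0.0677).

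In footprints none of the 36 was called (edgeR; 11 higher and 0 lower at an unadjusted p below 0.05, and 4 rises by DESeq2), and none per RNA (2 higher and 7 lower unadjusted, and 6 falls by DESeq2). Eif1 footprints were at 43.8 and 49.0 CPM in KO and 50.02 and 46.2 in SCR, groups that overlap. Members of this list that are themselves hosts are Eif5a and Eif3c with GTG ORFs and Eif3a with a CTG ORF. Their RNA differed by 0.15 (adjusted p = 0.073), 0.12 (adjusted p = 0.127) and 0.14 (adjusted p = 0.158), none past the threshold (edgeR).

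Among genes known for a protein form that starts at a near-cognate codon, a list of 14, the hosts were Myc and Vegfa, each with a listed GTG upstream ORF that is not that protein form. The Myc ORF of 72 bases had 65, 2 and 35 P-sites in frames 0, 1 and 2, and Myc RNA was at 156 and 153 CPM in KO and 132 and 133 in SCR (0.22, SE 0.0473, adjusted p = 0.0226, edgeR); its footprint groups overlap (0.04, adjusted p = 0.741). The RNA call was lost without SCR library 1 (0.163) or SCR library 2 (0.134), and with every gene with a count tested (0.0554). Vegfa had 145, 88 and 60 P-sites over 123 bases and RNA of 30.03 and 27.01 in KO and 32.3 and 28.4 in SCR, groups that overlap (-0.09, adjusted p = 0.559). Of the 11 members tested in RNA, 5 rose and 2 fell, by edgeR as by DESeq2, beside 9.56% and 7.21% of all genes. Of the 13779 genes tested in all 3 comparisons, 13.1% rose and 9.30% fell. Per RNA, where 3.4% of all genes and 5.56% of those 13779 fell, Bag1 (-0.65, adjusted p = 0.0395) and Mrpl18 (-0.62, adjusted p = 0.0247) fell. Their RNA rose by 0.40 each (adjusted p = 0.0144 and 0.00915, edgeR). Their footprint differences of -0.21 and -0.18 did not pass (adjusted p = 0.243 and 0.261, edgeR).

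Genes known to be controlled by upstream ORFs, 23 gene entries such as Atf4, Mdm2 and Slc7a1, gave 7 rises and 1 fall of 21 tested in RNA. All genes gave 9.56% and 7.21%, and the 13779 genes tested in all 3 comparisons 13.1 and 9.30%. Per RNA the list gave 6 falls and no rise of 22 (edgeR, 2 higher unadjusted, and 0 by DESeq2). There 3.4% of all genes fell and 0.788% rose, and of those 13779 genes 5.56 and 1.15%. Atf4, the effector of the integrated stress response, had a difference per RNA of -0.63 (adjusted p = 0.0231), Ifrd1 of -0.67 and Ppp1r15b, a phosphatase subunit that acts on eIF2, of -0.81 (both adjusted p = 0.0205). Their RNA rose, by 0.52, 0.59 and 0.32 in that order (adjusted p = 0.0035, 0.00328 and 0.0156, edgeR). Their footprints differed by -0.07, -0.04 and -0.45 (adjusted p = 0.578, 0.662 and 0.0676, edgeR), none past the threshold. The controlling ORFs of Atf4, Ifrd1 and Ppp1r15b start with ATG. Of the whole list only Odc1 is a host of a near-cognate member, with its ACG ORF. In the authors' deposited table of translational efficiency, a ratio of footprints to RNA per genotype, the median over CTG hosts was 0.321 in SCR and 0.300 in KO, over GTG hosts 0.321 and 0.319, over ACG hosts 0.261 and 0.248, and over ATG hosts 0.259 and 0.241. Over all genes tested those medians were 0.301 and 0.293.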

How the data were processed

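Input RNA and ribosome footprints of B16-F10 cells were analysed from deposited tables, 2 libraries per genotype and assay; T-cell receptor and single-cell files of the series were not used here. Estimated counts per gene were deposited by the authors; STAR 2.7.10a, StringTie 2.1.7 and GRCm39 are named, without role, in the submitters' processing notes. Count columns named POOL were read as KO because the other columns name SCR. The software that called the ORFs was not given in the sources used here.

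The ORF tables hold, as their headers say and as the authors deposited them, P-site counts per frame, RPKM of frame 0, the percent of codons with a P-site, and p-values. The authors' deposited efficiency table holds a ratio of footprints to RNA per genotype, a log2 change and p-values, of which only the ratio was printed. In the ORF tables every RPKM comes from 1 total, so P-sites cannot be split by genotype.

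Members and gene lists were chosen with earlier results of these data known. ORF medians carry 95% order-statistic intervals and single purities Wilson intervals, both for counting only. Genes were tested on the whole table, with estimated counts rounded, by edgeR 4.0.16 in R 4.3.3 (TMM, filterByExpr, quasi-likelihood F test, Benjamini-Hochberg adjusted p below 0.05; SE is the fold change over the root of F). Footprints per RNA are the genotype by assay interaction. DESeq2 1.42.0, its size factors, no filter, a replicate block and each library left out were alternatives. The edgeR script was tested on simulated data. Tables were joined in Python 3.11.15 with pandas 2.3.3.

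Named ORFs are, per codon, the 5 of highest RPKM, the 2 longest and the 2 with the most P-sites, 1 per gene. Named hosts are up to 5 rises and 5 falls per comparison by smallest p with groups that do not overlap, plus members of the lists. Other ORFs, such as those in which frame 0 does not lead, those of extreme ratio and the printed sequences, and the hosts Eif3c and Mt1 among the sequences, were chosen after their values were seen. Some items that these rules would name are not reported here.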

Additional observations from a re-analysis of the deposited data

How the results depend on the processing

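Host counts depended on the setting. With no filter, 22 hosts rose and 27 fell in RNA (76 and 70 in the report), 35 fell in footprints (12) and 2 rose per RNA (7). DESeq2 called 24 rises and 59 falls in footprints (4 and 12), and 33 and 80 per RNA (7 and 43). With 1 library left out, RNA rises ranged from 17 to 107 and falls from 20 to 84, footprint rises from 0 to 1 and falls from 0 to 1, and rises per RNA from 0 to 6 and falls from 0 to 57. Such fits leave 1 library in a group, which is assumed to vary like the others. The cause of these shifts was not tested.

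Deviations of same-numbered libraries correlated between SCR and KO at 0.0417 in input RNA and 0.048 in footprints, over 23211 genes. Genes of low count are among these, and their counting noise lowers such a correlation. The values therefore do not settle whether same-numbered libraries belong together. With the replicate number as a block, no host was called in footprints, 0 rises and 0 falls (edgeR; 71 higher and 91 lower at an unadjusted p below 0.05), and 2 rose and 15 fell per RNA; in RNA 90 rose and 80 fell.

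Of the ORF medians, length was 75 bases for CTG and 76.5 for ACG in the KO list alone. Median P-sites were 35 for CTG and 45 for GTG in the KO list, and 73 for CTG in the SCR list. Frame purity was 79.4% for ACG in the KO list, and 64.8% for CTG and 59.2% for GTG with at least 50 P-sites. Summed over ORFs it was 64.2% for CTG and 69.3% for GTG, and 59.6% for GTG without Hnrnpab, a setting chosen after seeing the data. For genes chosen by the naming rule, no direction reversed in a called value; of the fits with 1 library left out, 117 lost a call, 3 gained one and 424 did neither. The 12 hosts that fell in footprints and the 4 that rose rest on KO libraries of lower depth.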
